A study of Mus musculus with 12 samples.

Results

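The change of the chlordecone effect in the mouse prostate from the F1 to the F3 generation was measured over the genes whose Ensembl identifier stood in both deposited expression tables. These were 17039 genes of the 28075 in either table (19091 in the F1 table and 26023 in the F3 table), and 16980 of them passed the filter on low counts. For each gene the F1 effect is the log2 ratio of chlordecone over control in F1, the F3 effect is the same ratio in F3, and the interaction is the F3 effect minus the F1 effect. A positive interaction means a more positive effect in F3 and a negative one a less positive effect.

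Messenger RNA of whole prostate was sequenced from male mice after dosing of pregnant females (F0) with chlordecone, also called kepone, (100 µg/kg/day, embryonic days E6.5 to E15.5). The F1 chlordecone males had been in the womb during dosing, the F3 chlordecone males descended from them by crossing, and each generation had control males of its own. The labels list 12 samples and 11 libraries entered the fit, 3 per group except for the 2 libraries of the F1 controls, whose library 3 was not analysed here. The strain, the age at dissection, the prostate lobe and the control treatment of the dams are not stated, nor is whether the samples were separate animals or shared a litter, so the p-values measure only the spread between these samples.

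Chlordecone is a persistent organochlorine insecticide that binds oestrogen receptors weakly. The prostate develops from the urogenital sinus under androgen, with its lobes patterned by Hox genes, and oestrogen-like compounds given during that window are known to alter it. A foetus exposed in the womb also carries the germ cells of the following generation, which is why the F3 generation is the one in which a transgenerational effect is read after dosing of a pregnant female.

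Total counts were 17228539 to 28061760 in F1 and 71672418 to 114762135 in F3. Prostate secretory genes were abundant in every library, their 13 members together reaching 148600 to 156600 CPM (counts scaled to library size, with TMM factors) in F1 controls and 73400 to 111500 in F1 chlordecone. In F3 they reached 221500 to 294600 in controls and 232200 to 294500 in chlordecone. Secretory genes of the seminal vesicle, a neighbouring gland, reached 134500 to 136500 CPM over 10 members in F1 controls, 182400 to 507800 in F1 chlordecone and only 8263 to 11230 in F3, with none of the 10 at 0 in any group. Markers of the vas deferens and epididymis, 7 members, rested at 103.3 to 106.5 CPM in F1 controls, 237 to 41200 in F1 chlordecone and 33.4 to 96.52 in F3, where 1 member was at 0 in each group. The part of these tissues in the F1 effects and in the interaction was not tested, and in bulk samples fewer cells of a type and less RNA per cell cannot be told apart. The tables were also made separately, so levels set side by side across generations are descriptions only.

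The chlordecone effects of F1 and F3 shared little. Over the 16980 genes the F1 and F3 effects had the same sign in 48.0% and opposite signs in 52.0%, with a Pearson r of -0.03 and a Spearman rho of -0.05 across genes, which are not independent replicates. By the quasi-likelihood test of edgeR with Benjamini-Hochberg adjustment, 930 genes (5.48%) passed an adjusted p of 0.05 for the F1 effect, 697 higher (4.1%) and 233 lower (1.37%) with chlordecone. For the F3 effect 2 genes (0.0118%) passed, Ubash3b higher and Golt1a lower (0.00589% each). At an unadjusted p under 0.05 the counts were 3665 genes (21.6%) in F1 and 829 (4.88%) in F3.

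The 697 genes that were higher in F1 had a median F1 effect of 1.88 and a median F3 effect of 0.03, with 382 above 0 and 315 below 0 in F3. The 233 genes that were lower in F1 had a median F1 effect of -1.11 and a median F3 effect of 0.14, with 158 above 0 and 75 below 0 in F3. The median of all genes in F3 was 0.05. By level, the share of genes with the same sign in F1 and F3 was 49.0% of the 3100 genes under 1 CPM, 49.9% of the 5589 from 1 to 10 CPM, 46.8% of the 7019 from 10 to 100 CPM and 43.7% of the 1272 at 100 CPM or more. By class it was 47.8% of 15923 protein-coding genes, 49.7% of 857 long noncoding RNAs and 48.4% of 583 genes on the X chromosome.

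**Figure D1:**
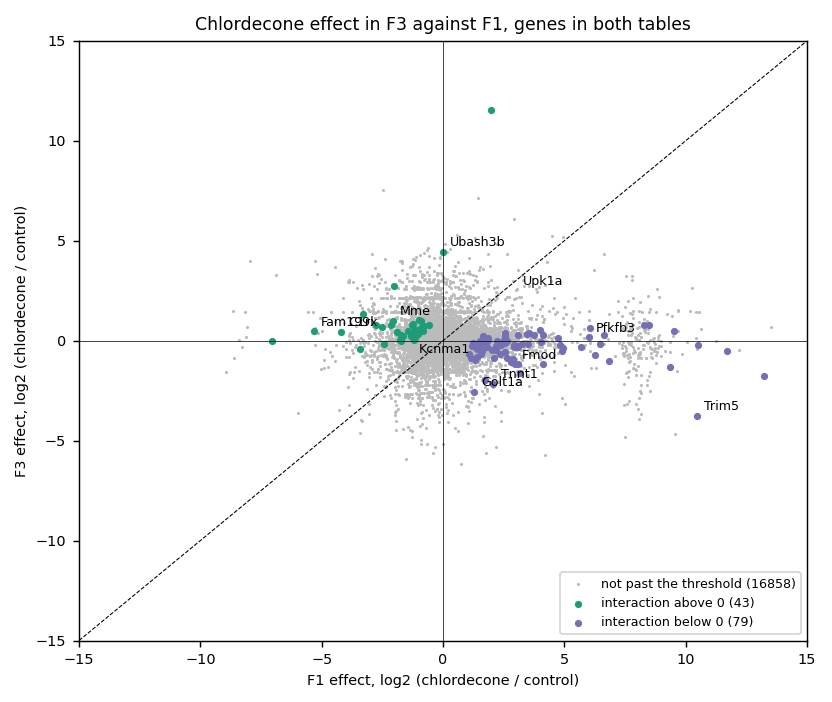
Each point is 1 of the 16980 genes, with its fitted F1 effect on the x axis and its fitted F3 effect on the y axis, both log2 of chlordecone over control; the dashed line marks equal effects. The 43 genes with a called interaction above 0 (green) lie mostly left of 0 and the 79 below 0 (violet) mostly right of 0, while in F3 the 2 sets have medians of 0.45 and -0.23; the cloud of grey points near 8 on the x axis and the called points beyond 9 hold genes at or near 0 counts in F1 controls, whose fitted values are no measured folds.

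The interaction passed an adjusted p of 0.05 in 122 genes (0.718% of those tested), 43 with a higher effect in F3 (0.253%) and 79 with a lower one (0.465%). At an unadjusted p under 0.05 it was 2878 genes (16.9%). Of the 122, 116 also passed for the F1 effect, beside 5.48% of all genes. Opposite signs in F1 and F3 were found in 96 of the 122: 58 were above 0 in F1 and below 0 in F3, and 38 the reverse. The 122 were picked by the difference of the effects, which by itself favours opposite signs, and 52% of all genes had them. In 35 of the 122 the F3 effect had an unadjusted p under 0.05, beside 4.88% of all genes. The median F3 effect was 0.45 over the 43 and -0.23 over the 79, beside median F1 effects of -1.26 and 2.63. The same choice by difference bears on these medians and on the counts of 116 and 35.

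These counts depended on the libraries and on the model. With the 2 F1 controls summed and counted as 1 sample, an alternative added after seeing the data, 12 genes passed for the interaction and 36 for F1. Leaving out 1 library at a time gave 27 to 2320 interaction calls, the highest without F1 chlordecone 2. With a variance of its own for each generation (limma's voom) 12 passed for the interaction, 13 for F1 and 35 for F3. A fit of the F1 libraries alone called 20 genes and a fit of the F3 libraries alone 10. The excess of F1 over F3 calls in the main fit was thus far smaller in the separate fits and was reversed with voom. Of the 122 genes, 7 passed in each of the 11 fits with 1 library left out and the 8 other alternative fits: C1rl, Fam199x, Mme and Ubash3b above 0 and Golt1a, Pfkfb3 and Trim5 below 0. Other genes named below passed less often. Of the 11 fits with 1 library left out, Psmb8 passed in 1, Abca5, Agtr1a, C1qc, Emb, Gsta3, Ms4a5, Optc and Pou2f3 in 2, Alox5ap and C7 in 3, and Bgn, H2-T10, Krt14 and Slpi in 4, and none of these passed with voom.

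**Figure D2:**
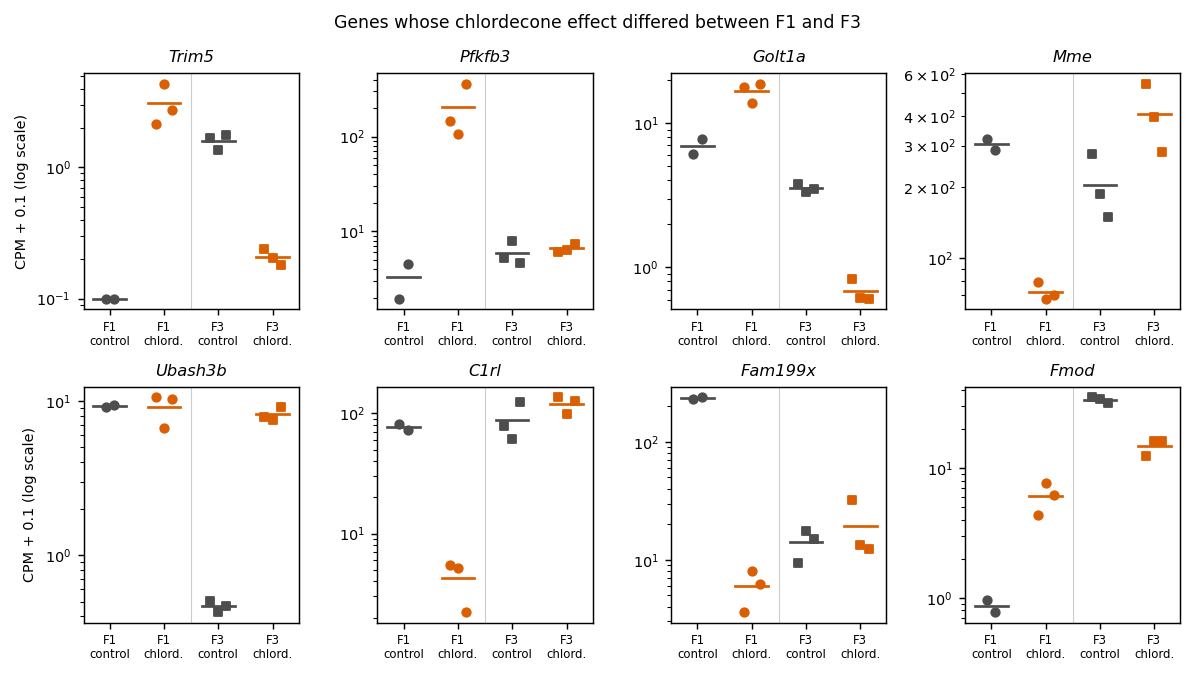
Level in each library (points) and group mean (lines) of the 7 genes that passed in every fit and of Fmod, as CPM plus 0.1 on a log axis; circles are F1, squares F3, grey controls and orange chlordecone. The groups of Ubash3b overlap in F1 only, those of C1rl, Fam199x and Pfkfb3 overlap in F3 only, and those of Trim5, Golt1a, Mme and Fmod are apart in both generations with the order reversed.

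Ubash3b encodes a phosphatase of the Sts family that dampens tyrosine kinase signalling. It had the smallest interaction p of all genes. Its F1 levels were 9 and 9.33 CPM in controls and 10.5, 6.54 and 10.2 with chlordecone. Its F3 levels were 0.406, 0.329 and 0.370 CPM in controls and 7.82, 7.46 and 9.06 with chlordecone. The F1 groups overlapped, the F3 groups were far apart, and the F3 chlordecone libraries were near the level of both F1 groups, with the F3 controls alone low. The F1 effect was -0.01 ± 0.30 (SE) and the F3 effect 4.45 ± 0.31 (adjusted p = 3.82e-05), so that the interaction was 4.47 ± 0.41 (edgeR adjusted p = 0.000777). The gene lies on chromosome 9 (41011098 to 41161697, GRCm38) over numbered gene models on both strands, and its reads are therefore uncertain.

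Fmod encodes fibromodulin, a small leucine-rich proteoglycan that binds collagen fibrils, and had the next smallest p. It measured 0.855 and 0.679 CPM in F1 controls and 4.21, 7.55 and 6.05 in F1 chlordecone. In F3 it measured 34.9, 34.0 and 31.7 CPM in controls and 12.3, 15.9 and 16 with chlordecone. The groups did not overlap in either generation, and their order was reversed. The F1 effect was 2.95 ± 0.32 (adjusted p = 0.000808), the F3 effect -1.19 ± 0.22 (unadjusted p = 0.000138, adjusted p = 0.235) and the interaction -4.14 ± 0.39 (adjusted p = 0.000777). It passed in all 11 fits with 1 library left out but not in limma's voom fit with a variance per generation (adjusted p = 0.0974). Fmod lies on chromosome 1 (134037254 to 134048277) and no annotated gene overlaps it.

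The 250 bases before a RefSeq transcription start of Ubash3b and of Fmod are printed because these genes had the smallest interaction p. They are RefSeq promoters on GRCm38.p6, at chr9:41158063-41158312 on the minus strand for Ubash3b, the first of 2 starts listed, and at chr1:134037004-134037253 on the plus strand for Fmod. The Ubash3b window lies inside the gene as located above, whose annotated start on the minus strand is at 41161697.
Ubash3b: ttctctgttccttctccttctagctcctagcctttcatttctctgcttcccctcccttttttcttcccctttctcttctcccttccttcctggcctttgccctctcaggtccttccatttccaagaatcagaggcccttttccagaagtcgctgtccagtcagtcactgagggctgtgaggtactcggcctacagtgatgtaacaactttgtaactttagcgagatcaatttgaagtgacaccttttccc
Fmod: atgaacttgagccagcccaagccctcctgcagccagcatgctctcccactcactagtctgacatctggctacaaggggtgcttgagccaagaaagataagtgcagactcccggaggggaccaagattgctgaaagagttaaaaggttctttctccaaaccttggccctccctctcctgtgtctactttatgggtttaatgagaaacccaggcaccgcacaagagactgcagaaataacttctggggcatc
Both strands were searched for GGTCANNNTGACC (the palindromic oestrogen response element), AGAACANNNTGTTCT (the palindromic androgen or glucocorticoid response element) and for GGTCA and AGAACA, the single arm of each, which any full match also holds. Neither window held any of these motifs, so no base is in capitals. Over 32851 promoter windows of the same length, the full elements were found in 0.0639% and 0.00913%, and the single arms in 35.2% and 16.1%. The GC content was 48.4% for Ubash3b and 51.2% for Fmod.

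Golt1a, which encodes a protein of vesicle transport, and Optc, which encodes the proteoglycan opticin, lie near Fmod on chromosome 1 and had interactions in the same direction. Golt1a measured 5.98 and 7.61 CPM in F1 controls and 17.6, 13.6 and 18.5 in F1 chlordecone. The F3 libraries held 3.66, 3.22 and 3.40 CPM in controls and 0.728, 0.515 and 0.510 with chlordecone. Neither pair of groups overlapped, chlordecone being the higher group in F1 and the lower one in F3. The Golt1a interaction was -3.83 ± 0.42 (edgeR adjusted p = 0.00135), with an F1 effect of 1.29 ± 0.30 (adjusted p = 0.0311) and an F3 effect of -2.55 ± 0.28 (adjusted p = 0.0044). Golt1a (133309800 to 133323026) overlaps Kiss1 and Gm28040 in the same orientation, and its reads are uncertain.

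Optc measured 1.76 and 0.589 CPM in F1 controls and 16.7, 3.54 and 11.0 in F1 chlordecone, against 0.941, 2.98 and 3.29 in F3 controls and 0.559, 1.03 and 0.775 in F3 chlordecone. The F3 groups of Optc overlapped, and its interaction was -4.77 ± 0.98 (adjusted p = 0.0474). In a window from 131809800 to 135548277 around these genes, chosen after their values were seen, 59 genes were tested and 3 passed, namely Golt1a, Optc and Fmod. In the same window 16 genes (27.1%) had an unadjusted interaction p under 0.05, 9 of them below 0, beside 16.9% of all genes. Golt1a, Optc and Fmod are counted in the 16 and in the 9. Both counts thus rest in part on the genes around which the window was drawn.

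Trim5, an antiviral restriction factor, had 0 counts in both F1 controls and 2.05, 4.23 and 2.65 CPM in F1 chlordecone. Set against 3 counts per library as the floor, that was at least 20.8-fold higher. In F3 it measured 1.57, 1.26 and 1.66 CPM in controls and 0.140, 0.103 and 0.0816 with chlordecone. The F3 effect was -3.76 ± 0.57 (unadjusted p = 2.7e-05, adjusted p = 0.114). The interaction passed (adjusted p = 0.00103), and the order of the groups was reversed between generations with no overlap in either. Trim5 overlaps a numbered gene model in the same orientation and has near copies in the genome, which leaves its reads uncertain.

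Tnnt1 and Psmb8 also had effects of opposite sign. Tnnt1, a troponin of slow skeletal muscle, measured 3.27 and 4.71 CPM in F1 controls and 21.2, 15.3 and 13.9 in F1 chlordecone, against 6.31, 9.96 and 9.42 in F3 controls and 0.988, 2.03 and 2.72 in F3 chlordecone. Its interaction was -4.23 ± 0.57 (adjusted p = 0.00543), with effects of 2.07 in F1 and -2.16 in F3 and no overlap in either generation. Psmb8, a subunit of the immunoproteasome, measured 3.71 and 4.83 CPM in F1 controls and 7.23 to 15.1 in F1 chlordecone, then 12.3 to 19.2 in F3 controls and 7.01 to 8.72 in F3 chlordecone. Its interaction was -2.28 ± 0.46 (adjusted p = 0.0444) and passed in only 1 of the 11 fits with 1 library left out.

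Mme encodes neprilysin, a membrane peptidase that cleaves angiotensin and other small peptides. It measured 321 and 287 CPM in F1 controls and 79.4, 67.5 and 69.9 in F1 chlordecone. The F3 libraries held 277, 187 and 150 CPM in controls and 546, 395 and 282 with chlordecone. The lowest F3 chlordecone library lay just above the highest F3 control, while the F1 groups lay far apart in the other order. The F1 effect was -2.07 ± 0.30 (adjusted p = 0.00397), the F3 means differed 1.99-fold, higher with chlordecone (unadjusted p = 0.00258, adjusted p = 0.769), and the interaction was 3.07 ± 0.40 (adjusted p = 0.00455). Mme lies on chromosome 3 (63241537 to 63386030) with no overlapping gene.

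Agtr1a, the angiotensin receptor of type 1a, shared this order. It measured 8.70 and 10.2 CPM in F1 controls, 4.18, 4.72 and 6.35 in F1 chlordecone, 8.21, 7.67 and 7.34 in F3 controls and 18.2, 14.2 and 12.7 in F3 chlordecone, and its interaction was 1.86 ± 0.36 (adjusted p = 0.0396), which passed in only 2 of the 11 fits with 1 library left out. Agtr1a overlaps a numbered gene model on its own strand. Of the 10 tested genes of the renin-angiotensin list, Mme and Agtr1a were the 2 whose interaction passed, and the list's median effect was -0.10 in F1 and 0.40 in F3. Ace, the converting enzyme and the list's most abundant member, had an interaction of 0.26 that did not pass (adjusted p = 0.748). Ren1 was not among the genes in both tables.

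Foxp2, a forkhead transcription factor, Muc20, a membrane mucin, Abca5, a lipid transporter, and Cfap53, a cilium protein, were likewise below control in F1 and above it in F3, with no overlap in either generation. Foxp2 measured 21.2 and 25.0 CPM in F1 controls and 11.2 to 12.2 in F1 chlordecone, against 3.56 to 6.64 in F3 controls and 9.45 to 11.8 in F3 chlordecone. The interactions were 2.03 ± 0.36 for Foxp2 (adjusted p = 0.0255), 2.05 ± 0.32 for Muc20 (adjusted p = 0.0159), 1.49 ± 0.29 for Abca5 (adjusted p = 0.0421) and 4.76 ± 0.68 for Cfap53 (adjusted p = 0.00876). Cfap53 was the lowest of these in F3, at 0.0697 to 0.0945 CPM in controls and 0.428 to 0.818 with chlordecone. Muc20 overlaps Muc4 and Cfap53 a numbered gene model, each on the other strand.

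Trpc6, a calcium channel opened by diacylglycerol, also differed in both generations. It measured 12.1 and 9.96 CPM in F1 controls and 0.623, 1.18 and 1.57 in F1 chlordecone, against 1.44, 2.60 and 2.71 in F3 controls and 4.56, 7.73 and 4.95 in F3 chlordecone. The interaction was 4.65 ± 0.60 (adjusted p = 0.00455), with an F1 effect of -3.30 and an F3 effect of 1.35 (unadjusted p = 0.00435, adjusted p = 0.826). A numbered gene model lies on its other strand.

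Among the genes with a lower level in F1 alone, Fam199x and C1rl had the largest differences. Fam199x, a gene of the X chromosome (137049594 to 137082503) whose function is little known, measured 232 and 239 CPM in F1 controls and 3.52, 7.88 and 6.18 in F1 chlordecone. In F3 it measured 9.22, 17.5 and 15 CPM in controls and 31.7, 13.4 and 12.2 with chlordecone. The F3 groups overlapped, and all 6 F3 libraries were nearer to F1 chlordecone than to the F1 controls. The interaction was 5.80 ± 0.58 (adjusted p = 0.00102), resting on an F1 effect of -5.34 ± 0.46 beside an F3 effect of 0.46 ± 0.37.

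C1rl, a serine protease related to complement C1r, measured 82.4 and 73.1 CPM in F1 controls and 5.39, 5.09 and 2.13 in F1 chlordecone. The F3 libraries held 78.3, 61.0 and 126 CPM in controls and 136, 99.6 and 126 with chlordecone, so that both F3 groups overlapped near the F1 control level. The interaction of C1rl was 4.66 ± 0.48 (adjusted p = 0.00103), and a numbered gene model lies on the other strand. Over the 122 interaction genes, the F3 mean was nearer on the log2 scale to F1 control in 63 (51.6%) and nearer to F1 chlordecone in the others, beside 41.2% nearer to F1 control over all genes. Fam199x and C1rl are thus examples of each kind.

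Of the remaining named genes with a higher effect in F3, Fgl1, a secreted fibrinogen-like protein counted among prostate products, measured 572 and 591 CPM in F1 controls, 96.0 to 127 in F1 chlordecone and 298 to 432 over the 6 F3 libraries. Its interaction was 2.27 ± 0.29 (adjusted p = 0.00436). Scn3a, a sodium channel subunit, Bank1, a B cell scaffold, Pou2f3, a factor of tuft cells, Camk1d, a calmodulin-dependent kinase, and H2-T10, a non-classical MHC gene listed as a polymorphic pseudogene, fell in F1 and did not pass in F3. Their interactions were 3.52 for Scn3a, 3.19 for Bank1, 2.94 for Pou2f3, 2.37 for Camk1d and 3.02 for H2-T10, with adjusted p from 0.0162 to 0.0474. H2-T10 belongs to a family of near copies, so its reads are uncertain. Ms4a5, a membrane protein of the MS4A family, had 0 counts in all 3 F3 controls and 6.08, 6.69 and 5.68 CPM in F3 chlordecone, at least 175-fold higher against the floor, beside 1.71 and 0.634 CPM in F1 controls and 0.256, 8.04 and 5.66 in F1 chlordecone. Its interaction (adjusted p = 0.0474) passed in only 2 of the 11 fits with 1 library left out.

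Several genes with low interactions were high in F1 chlordecone beside the other groups. Pfkfb3, an activator of glycolysis, measured 1.86 and 4.48 CPM in F1 controls, 147, 106 and 359 in F1 chlordecone and 4.54 to 7.73 over the 6 F3 libraries. Its interaction was -5.82 ± 0.69 (adjusted p = 0.0025). Plau, the urokinase plasminogen activator, measured 5.53 and 3.62 CPM in F1 controls, 339, 108 and 759 in F1 chlordecone and 3.02 to 4.85 in F3. Clu, the secreted chaperone clusterin, measured 3.87 and 4.08 CPM in F1 controls, 281, 92.9 and 824 in F1 chlordecone and 18.1 to 39.6 in F3. In each of Pfkfb3, Plau and Clu, F1 chlordecone 3 was the highest library and F1 chlordecone 2 the lowest of its group.

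Defb42, a beta-defensin, measured 0.302 and 0.815 CPM in F1 controls and 106, 51.8 and 378 in F1 chlordecone. Emb, a cell adhesion protein, measured 278, 3.54 and 142 CPM in F1 chlordecone, so that F1 chlordecone 2 lay close to the controls at 0.955 and 1.49. Slpi, a secreted protease inhibitor, had 0 counts in both F1 controls and 11.1, 4.02 and 45.2 CPM in F1 chlordecone, at least 140-fold higher against the floor. Its F3 levels were not low, at 4.92, 62.1 and 22.1 CPM in controls and 5.89, 12.8 and 7.21 with chlordecone, and these groups overlapped. The Slpi interaction (adjusted p = 0.0394) was lost in 7 of the 11 fits with 1 library left out and in voom (adjusted p = 0.532). The other named genes of this direction were Stap1, Scg5, Bex2, Ces1d and Alox5ap, and none of these 8 genes, Defb42 to Alox5ap, reached an unadjusted p under 0.05 in F3. Kcna2, a potassium channel subunit, measured 2.71 and 2.49 CPM in F1 controls, 23.6, 45.3 and 35.4 in F1 chlordecone and at most 0.269 in F3, with an interaction of -3.45 ± 0.46 (adjusted p = 0.00485). Cyp21a1, the steroid 21-hydroxylase, had 0 counts in F1 controls and 32.5, 19.6 and 20.2 CPM in F1 chlordecone, at least 168-fold higher, but was at 0 in 4 of 6 F3 libraries and its interaction missed the threshold (adjusted p = 0.116).

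Fewer genes stood apart from control in both generations. An unadjusted p under 0.05 in both was reached by 226 genes (1.33%), and 93 of them (0.548% of all genes) had the same direction, 68 higher in both and 25 lower in both. The other 133 had opposite directions, 86 lower in F1 and higher in F3 and 47 the reverse. The share with the same direction, 41.2% of the 226, was below the 48.0% of all genes. Leaving out single libraries moved it between 33.1% and 52.7%, lowest without F1 chlordecone 2 and highest without F3 chlordecone 1. None of the same-direction genes named below passed in F3 after adjustment.

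Upk1a, a uroplakin of urothelial membranes, measured 1.66 and 0.634 CPM in F1 controls and 12.1, 2.46 and 12.5 in F1 chlordecone. In F3 it measured 3.87, 2.36 and 3.35 CPM in controls and 16.3, 22.4 and 16.2 with chlordecone. The groups did not overlap in either generation, with an F1 effect of 2.99 ± 0.64 (adjusted p = 0.0219) and an F3 effect of 2.51 ± 0.50 (unadjusted p = 0.000248, adjusted p = 0.301). The uroplakins Upk3a and Upk3b had F3 effects of -0.83 and -0.52, neither of which passed. Over the 9 tested urothelium markers the median was 2.99 in F1 and 0.08 in F3. Their summed level went the other way in F1, from 3065 to 3126 CPM in controls and from 1301 to 1701 with chlordecone. Gata3, the most abundant member, had F1 means of 3070 CPM in controls and 1465 with chlordecone. In F3 the sum was 514.5 to 557.5 CPM in controls and 531.5 to 590.6 with chlordecone.

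Tyro3, a receptor tyrosine kinase for Gas6 and protein S, measured 1.72 and 2.51 CPM in F1 controls and 4.34 to 9.57 in F1 chlordecone, then 3.46 to 3.98 in F3 controls and 6.52 to 10.3 in F3 chlordecone. Ece1, the endothelin-converting enzyme, measured 3.12 and 5.21 CPM in F1 controls and 7.98 to 9.83 in F1 chlordecone, then 8.58 to 10.2 in F3 controls and 15.1 to 16.8 in F3 chlordecone. Cpe, the carboxypeptidase that trims prohormones, measured 30.2 and 32.8 CPM in F1 controls and 84.3 to 140 in F1 chlordecone, then 26.9 to 70.6 in F3 controls and 76.1 to 117 in F3 chlordecone. All 3 genes kept their groups apart in both generations. Their F1 and F3 effects were 1.87 and 1.27 for Tyro3, 1.11 and 0.79 for Ece1 and 1.95 and 1.14 for Cpe. Sprr1a, a protein of the cornified envelope, had effects of 4.43 and 2.96, but its F1 groups overlapped.

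**Figure D3:**
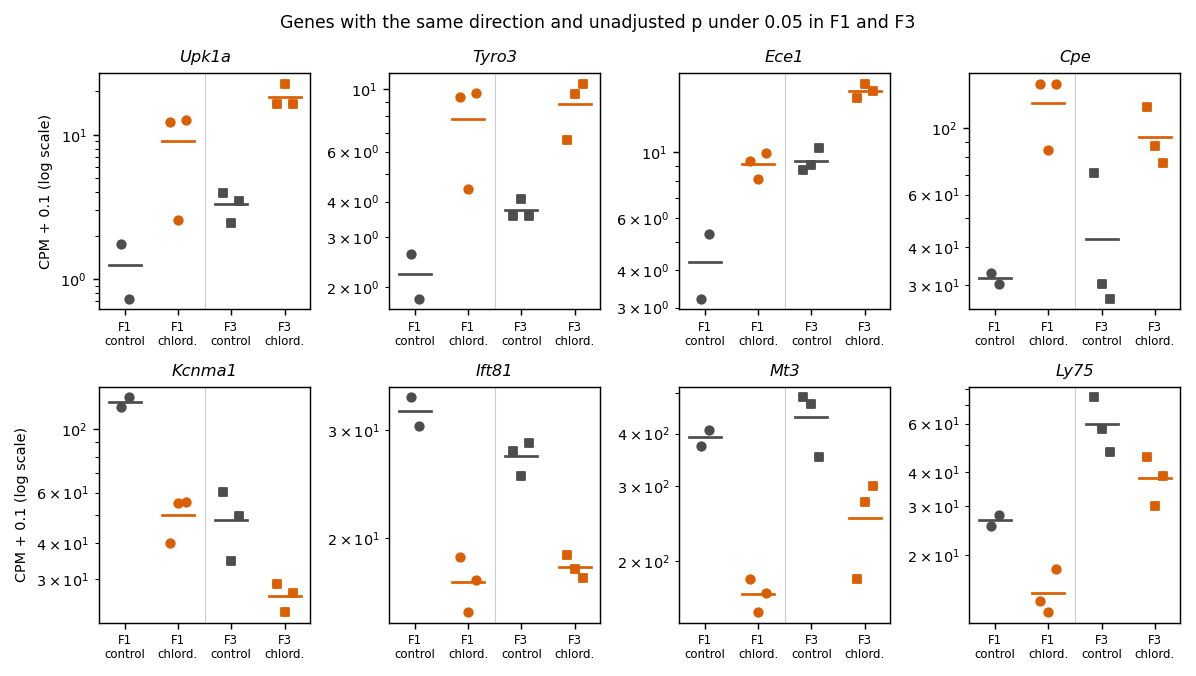
Level in each library (points) and group mean (lines) of 8 genes with an unadjusted p under 0.05 and the same direction in both generations, as CPM plus 0.1 on a log axis; circles are F1, squares F3, grey controls and orange chlordecone. Upk1a, Tyro3, Ece1 and Cpe are higher and Kcnma1, Ift81, Mt3 and Ly75 lower with chlordecone, with no overlap of groups in F1 or F3.

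Lower in both generations were Kcnma1, the large-conductance calcium-activated potassium channel, Ift81, a part of the transport machinery of cilia, Mt3, a metallothionein, and Ly75, an endocytic receptor. Mt3 measured 375 and 409 CPM in F1 controls and 181, 151 and 167 in F1 chlordecone, then 488, 471 and 351 in F3 controls and 181, 275 and 300 in F3 chlordecone. Ift81 measured 33.8 and 30.4 CPM in F1 controls and 15.1 to 18.5 in F1 chlordecone, then 25.1 to 28.4 in F3 controls and 17.2 to 18.7 in F3 chlordecone. The F1 and F3 effects were -1.31 and -0.88 for Kcnma1, -0.92 and -0.60 for Ift81, -1.23 and -0.79 for Mt3 and -0.88 and -0.65 for Ly75. Olfm4, a secreted glycoprotein of epithelial progenitors, measured 372 and 370 CPM in F1 controls and 35.5 to 71.2 in F1 chlordecone, then 48.9 to 90.1 in F3 controls and 23.9 to 47.0 in F3 chlordecone, and its interaction of 1.84 missed the threshold (adjusted p = 0.0714). In Kcnma1, Ift81, Mt3, Ly75 and Olfm4 alike, the F3 effect was smaller in size than the F1 effect. This was so for genes in general: the median size over all genes was 0.47 in F1 and 0.24 in F3. Over the 226 genes with an unadjusted p under 0.05 in both it was 1.04 and 0.69.

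By gene list, F1 and F3 medians had the same sign in 18 of 41 lists. Each list is described by its counts and its median, beside 52.9% of all genes above 0 in F1 and 55.7% in F3 and a median of 0.05 in F1, 0.05 in F3 and -0.04 for the interaction over all genes. DESeq2 size factors in place of TMM lowered the median of all genes to -0.02 in F1 and 0.00 in F3, and turned the sign of no list median printed here. Setting genes with 0 counts in a group to their bound against the floor of 3 counts left the F1 and F3 list medians printed in the text as they were. It lowered the F3 median of all genes from 0.05 to 0.03.

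**Figure D4:**
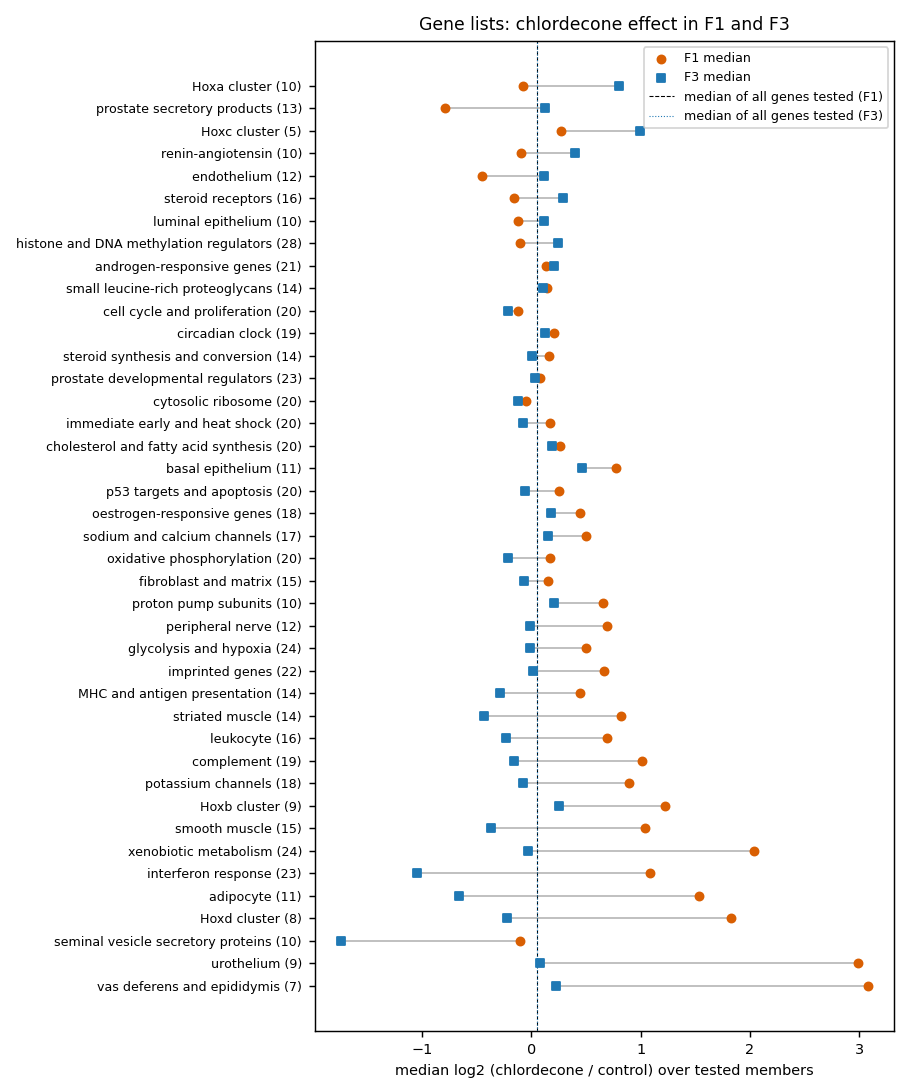
Median F1 effect (orange circles) and F3 effect (blue squares) over the tested members of 41 gene lists, joined by a line and ordered by the median interaction, with the number of tested members in brackets and the medians of all genes as vertical lines. Interferon, smooth muscle, adipocyte and Hoxd genes have medians above 0 in F1 and below 0 in F3, the Hoxa cluster has its median above 0 in F3 only, and basal epithelium is above the median of all genes in both.

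Interferon response genes, which cells switch on against viruses, were on balance above control in F1 and below it in F3. Of 23 tested members 18 were above 0 in F1 and all 23 were below 0 in F3 (17 and 23 with DESeq2 size factors), the medians being 1.08 in F1, -1.05 in F3 and -1.98 for the interaction. An unadjusted p under 0.05 was reached by 11 members in F1 and 8 in F3, and the interaction passed in 1, Trim5. By library, the median over members relative to the controls of the generation was 1.20, 0.20 and 1.65 in F1 chlordecone. It was -0.82, -1.14 and -0.57 in F3 chlordecone, beside 0.62, -0.39 and -0.13 in F3 controls. All 3 F3 chlordecone libraries were below all 3 F3 controls, and F1 chlordecone 2 was close to the F1 controls.

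Oas1a, an antiviral oligoadenylate synthetase, had 0 counts in F1 controls and 0.659, 0.321 and 4.05 CPM in F1 chlordecone, at least 11.7-fold higher. The F3 libraries held 5.60, 1.99 and 1.70 CPM in controls and 1.22, 0.656 and 1.39 with chlordecone. Oasl2, a relative, measured 0.603 and 0.181 CPM in F1 controls and 1.76 to 3.11 in F1 chlordecone, then 6.07 to 38.8 in F3 controls and 5.04 to 7.20 in F3 chlordecone. F3 control 1 was the highest F3 control in both. Their interactions missed the threshold, with adjusted p of 0.0555 for Oas1a and 0.0589 for Oasl2, and these genes have near copies in the genome. Stat2, the most abundant member, measured 18.2 to 86.2 CPM in controls of either generation and had an interaction of 0.07.

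MHC and antigen presentation genes had 10 of 14 members above 0 in F1 and all 14 below 0 in F3, with medians of 0.45 in F1, -0.29 in F3 and -0.83 for the interaction, which passed in Psmb8 alone. By library, the list's median relative to the F3 controls was 0.22, 0.17 and -0.29 in controls and -0.59, -0.55 and -0.16 with chlordecone. These F3 groups overlapped. Tapbp, the tapasin that loads peptides, measured 166, 138 and 133 CPM in F3 controls and 91.0, 99.2 and 105 in F3 chlordecone, with an interaction of -1.06 that did not pass (adjusted p = 0.101). Leukocyte markers ran alongside these lists, 11 of 16 being above 0 in F1 and 10 of 16 below 0 in F3. Their summed level was 34.59 to 34.69 CPM in F1 controls, 50.58 to 298.3 in F1 chlordecone, 77.35 to 150.6 in F3 controls and 69.91 to 129.6 in F3 chlordecone, with 1 member at 0 in the F1 controls. The part of leukocytes in the interferon and MHC values was not tested.

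Smooth muscle genes had all 15 members above 0 in F1 and 14 of 15 below 0 in F3, with medians of 1.04 in F1, -0.37 in F3 and -1.43 for the interaction. No member's interaction passed: Smtn, smoothelin, came nearest (interaction -2.33 ± 0.49, adjusted p = 0.0522) and Myh11, the smooth muscle myosin heavy chain, next (-2.42 ± 0.57, adjusted p = 0.0638). Myh11 measured 111 and 111 CPM in F1 controls and 884, 329 and 460 in F1 chlordecone, against 340, 698 and 825 in F3 controls and 467, 685 and 603 in F3 chlordecone. The F3 groups overlapped, and F3 control 1 was the lowest library. The summed level of the list was 6240 to 6261 CPM in F1 controls, 8048 to 16470 in F1 chlordecone, 2128 to 6554 in F3 controls and 2794 to 4244 in F3 chlordecone.

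**Figure D5:**
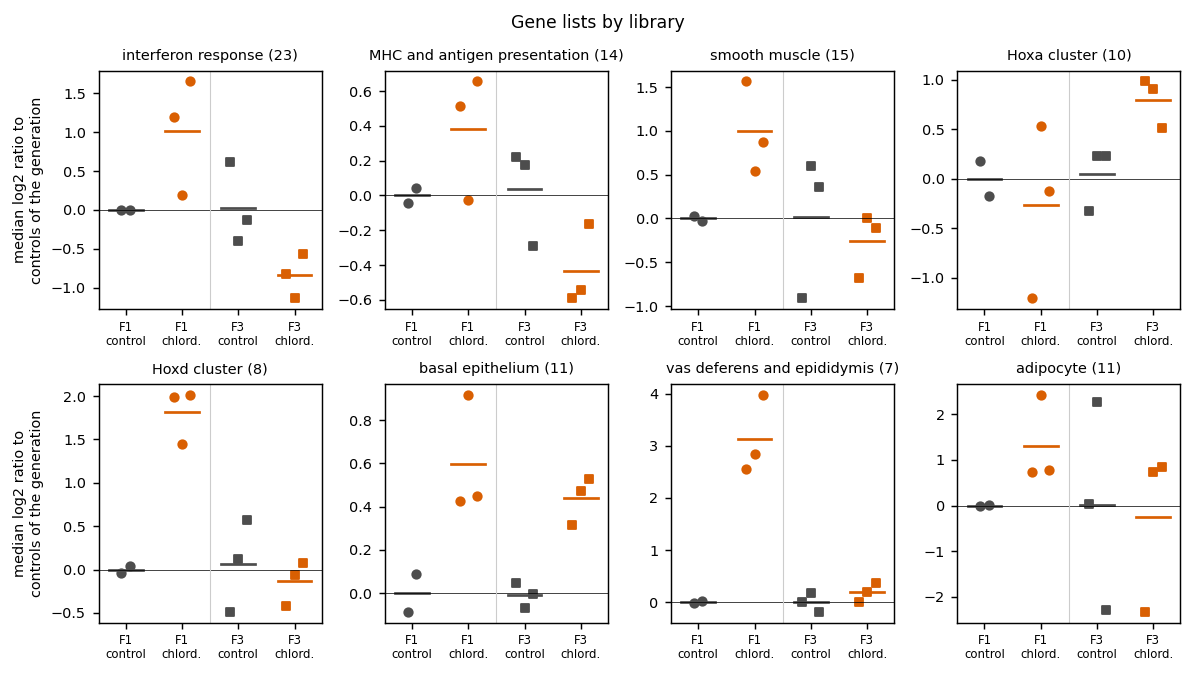
Median over list members of log2 CPM relative to the mean of the controls of the same generation, for each library (points) and group (lines); circles are F1, squares F3, grey controls and orange chlordecone, with the number of tested members in brackets. Interferon scores of F3 chlordecone lie from -1.14 to -0.57 and those of F1 chlordecone from 0.20 to 1.65, while basal epithelium lies above the controls with chlordecone in both generations and adipocyte scores of F3 spread from -2.33 to 2.27 across both groups.

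Hox genes, which set position along the urogenital tract, differed by cluster. Of 10 tested Hoxa genes 8 were below 0 in F1 and 9 above 0 in F3, with medians of -0.08 and 0.80. In F3 5 of them had an unadjusted p under 0.05, beside 4.88% of all genes. By library, the Hoxa medians of the F1 groups overlapped, at 0.18 and -0.18 in controls and -1.21, 0.53 and -0.13 with chlordecone. In F3 they were -0.33, 0.22 and 0.23 in controls and 0.98, 0.90 and 0.51 with chlordecone. Hoxa3 measured 6.18 and 5.03 CPM in F1 controls and 1.76, 3.91 and 1.78 in F1 chlordecone, then 0.221, 0.314 and 0.404 in F3 controls and 1.08, 1.57 and 1.12 in F3 chlordecone. Its interaction of 3.17 ± 0.68 missed the threshold (adjusted p = 0.0543), and it overlaps other Hoxa genes. Hoxa10, the most abundant member, measured 51.2 and 38.0 CPM in F1 controls and 38.4 to 48.4 in F1 chlordecone, then 15.6 to 22.9 in F3 controls and 30.4 to 39.9 in F3 chlordecone, where the groups did not overlap.

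Of 8 tested Hoxd genes 7 were above 0 in F1 and 6 below 0 in F3, with medians of 1.82 and -0.22. By library, the list medians of the F3 groups overlapped. Hoxd8 measured 4.88 and 5.71 CPM in F1 controls and 53.1, 14 and 35.6 in F1 chlordecone, then 5.35 to 11.4 in F3 controls and 8.01 to 10.6 in F3 chlordecone. Hoxb genes were above 0 in 8 of 9 in F1 (median 1.22) and in 6 of 9 in F3 (median 0.25). The exception in F1 was Hoxb13, the Hox gene of the prostate, at 161 and 175 CPM in F1 controls and 88.0 to 106 in F1 chlordecone (F1 effect -0.79, adjusted p = 0.039) and 481 to 624 over the F3 libraries. No Hox gene of the Hoxa, Hoxb, Hoxc or Hoxd lists passed for the interaction.

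Steroid receptor genes and their cofactors had 10 of 16 members below 0 in F1 and 14 of 16 above 0 in F3, with medians of -0.16 and 0.29. By library, the list's median relative to the F3 controls was 0.16, -0.15 and 0.12 in controls and 0.40, 0.39 and 0.11 with chlordecone. These F3 groups overlapped. Esr1, the oestrogen receptor alpha, measured 42.4 and 31.7 CPM in F1 controls and 19.4, 19.8 and 21.9 in F1 chlordecone (F1 effect -0.86, adjusted p = 0.025), then 67.4, 56.9 and 58.1 in F3 controls and 83.1, 74.0 and 65.7 in F3 chlordecone, whose groups overlapped. The interactions were 1.15 ± 0.26 for Esr1 (adjusted p = 0.0606) and 2.05 ± 0.50 for Pgr, the progesterone receptor (adjusted p = 0.0702), neither of which passed.

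Among 18 tested oestrogen-responsive genes 12 were above 0 in F1 and 12 in F3, with 1 interaction called. This was Ccnd1, cyclin D1, at 24.5 and 28.4 CPM in F1 controls, 122, 66.7 and 135 in F1 chlordecone, 52.4, 57.3 and 55.8 in F3 controls and 41.4, 41.1 and 35.3 in F3 chlordecone, with an interaction of -2.52 ± 0.35 (adjusted p = 0.00768). The Ccnd1 groups did not overlap in either generation. Among 21 androgen-responsive genes 13 were above 0 in F1 and 17 in F3, and none passed for the interaction. Fkbp5, a chaperone partner of steroid receptors, came nearest: 14 and 9.83 CPM in F1 controls, 27.6 to 57.4 in F1 chlordecone, 30.6 to 39.5 in F3 controls and 40.8 to 45.3 in F3 chlordecone, with groups apart in both generations and effects of 1.80 and 0.29.

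Epithelial lists differed in how far they carried over. Basal epithelium had 7 of 11 members above 0 in F1 and 10 of 11 in F3, with medians of 0.77 and 0.47 and an unadjusted p under 0.05 in both generations for 4 members. Krt5, the basal keratin, measured 2.71 and 4.62 CPM in F1 controls and 11.1 to 13.1 in F1 chlordecone, then 38.2, 56.5 and 42.2 in F3 controls and 57.2, 67.5 and 71.7 in F3 chlordecone, with groups apart in both. Its partner Krt14 rose in F1 from 1.31 and 0.725 to 4.51, 5.84 and 7.22 CPM, while its F3 groups overlapped between 21.0 and 33.3 CPM, and its interaction was -2.28 ± 0.42 (adjusted p = 0.0291). Itga6, another basal marker, was lower in F1, with means of 62.7 CPM in controls and 29.6 with chlordecone. Dst, the most abundant basal member, had F1 means of 160.8 and 160.4 CPM. The summed basal level overlapped in F1, at 271 to 277.1 CPM in controls and 235.2 to 362.1 with chlordecone. In F3 that sum was 316.8 to 353.9 CPM in controls and 387.5 to 470 with chlordecone. Prostate secretory genes were below 0 in 11 of 13 in F1 (median -0.79) and in 6 of 13 in F3 (median 0.12), Fgl1 being the 1 member whose interaction passed.

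Interactions were called below 0 in 3 of 14 proteoglycan genes and 2 of 24 xenobiotic genes. Of 19 complement genes 1 was called above 0 and 2 below 0. Over all genes 0.718% were called. These lists were chosen with earlier results of these data known, so the counts are descriptions only. Besides Fmod and Optc, Bgn, biglycan, measured 6.84 and 8.29 CPM in F1 controls and 24.5 to 45.2 in F1 chlordecone, then 22.3 to 47.3 in F3 controls and 23.9 to 35.4 in F3 chlordecone (interaction -2.63 ± 0.47, adjusted p = 0.0265). Dcn, decorin, the most abundant of the 14 proteoglycan genes, had effects of 0.09 and 0.16 and no called interaction. Of 19 complement genes, C1rl had a higher effect in F3, while C7, of the membrane attack complex, and C1qc, of the first component, had lower ones of -3.16 and -3.11 (adjusted p = 0.0454 and 0.0474). Of 24 xenobiotic genes, 20 were above 0 in F1 (18 with DESeq2 size factors, median 2.04) and 11 in F3 (median -0.03). The carboxylesterase Ces1d and the glutathione transferase Gsta3 passed for the interaction there, at -6.01 ± 1.09 (adjusted p = 0.0283) and -2.66 ± 0.55 (adjusted p = 0.0474).

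Lists of general cell functions gave small medians. Cell cycle genes had the highest share with the same sign among lists of at least 10 members, 85.0% of 20, with medians of -0.12 in F1 and -0.21 in F3 and none passing. By library, the cell cycle medians of the groups overlapped in both generations. They were -0.06 and 0.06 in F1 controls and -0.56, 0.03 and -0.24 in F1 chlordecone. F3 controls had 0.61, -0.43 and -0.21 and F3 chlordecone -0.07, -0.14 and -0.05. Cytosolic ribosome genes had medians of -0.05 and -0.13, and oxidative phosphorylation genes of 0.17 and -0.21. Histone and DNA methylation regulators, which write and erase epigenetic marks, were below 0 in 15 of 28 in F1 (median -0.11) and above 0 in 23 of 28 in F3 (median 0.24), and none passed for the F1 effect, the F3 effect or the interaction. By library, the list's median relative to the F3 controls was 0.27, -0.30 and 0.10 in controls and 0.32, 0.29 and 0.15 with chlordecone. These F3 groups overlapped.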

How the data were processed

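Read counts per gene of 11 prostate libraries were used as deposited, in 1 table per generation. Per the submitters' processing notes, the authors worked on mm10 with TopHat2 (2.0.14) and Bowtie2 (2.1.0), counted with HTSeq (0.6.1) and also used DESeq2 (1.6.3) and bcl2fastq (2.17.1.14), from stranded poly-A libraries per the labels' protocols. Neither the annotation release nor how strand was treated is stated there, so the reads of genes that overlap another are uncertain. Such overlaps are pointed out above for some of the named genes only. Among others, Pfkfb3, Slpi, Stap1, Ces1d, Foxp2, Ift81 and Olfm4 also overlap an annotated gene on their own strand. Further named genes, such as Defb42, Cyp21a1, Kcnma1 and Psmb8, overlap a gene on the other strand. Of the matched identifiers, 2.11% had the start and end of GENCODE M21 in the F1 table and 78.9% in the F3 table, which shows that the tables were not made alike. Coordinates printed are those of GENCODE M21 (GRCm38). Table columns headed K were read as chlordecone, after kepone, and no column of other samples was left over (0).

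The tables were joined by Ensembl identifier, and edgeR 4.0.16 in R 4.3.3 was run on the counts of all 11 libraries, with 1 mean per group, TMM scaling and filterByExpr (minimum count 10, minimum total 15). Quasi-likelihood F tests, two-sided, gave the F1 effect, the F3 effect and their difference, with Benjamini-Hochberg adjustment over 16980 genes and a threshold of 0.05. All groups share 1 estimate of the spread per gene. The median SD of log2 CPM was 0.155 in F1 controls, 0.343 in F1 chlordecone, 0.221 in F3 controls and 0.132 in F3 chlordecone, over 8291 genes at 10 CPM or more. A gene with 0 counts throughout a group has a fold only as a bound against 3 counts per library, and such bounds cover counting error only.

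Tested on simulated data over 16980 genes, the interaction test recovered 6% of changes of size 1 (log2), 50% of size 2, 76% of size 4 and 80% of size 6, with 7 false calls among 113. The simulation gave each gene 1 mean, changed in F1 chlordecone only, and 1 spread shared by all groups, as the fit assumes. The real groups differed in spread, so these rates need not hold for them. The alternatives were scaling by DESeq2 size factors, testing without a filter, keeping genes at 1 CPM or more on average, DESeq2 1.42.0, limma 3.58.1 voom with a variance per generation, F3 counts thinned to F1 depth, the replicate number as a block, a fit per generation, leaving out each library, and the F1 controls summed.

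Genes named had a mean of at least 1 CPM and a symbol that is no numbered model or clone. They were the 12 called genes with the highest and the 12 with the lowest interaction, the 5 with the smallest larger p for each pair of directions among genes with p under 0.05 in both generations, and the 6 with the smallest p for each generation's effect. In a list they were the 3 with the smallest interaction p and the most abundant. The lists described, of the 41, and the chromosome 1 window were picked after their values were seen. The members and the 41 lists were chosen with earlier results of these data known.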

Additional observations from a re-analysis of the deposited data

Results flagged for a closer look

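The chlordecone effect differed between F3 and F1 in the interaction test of edgeR (quasi-likelihood, adjusted p under 0.05) for 42 of the named genes. Their interactions, in log2, were 9.53 for Ms4a5, 5.80 for Fam199x, 4.76 for Cfap53, 4.66 for C1rl, 4.65 for Trpc6, 4.47 for Ubash3b, 3.52 for Scn3a, 3.19 for Bank1, 3.07 for Mme, 3.02 for H2-T10, 2.94 for Pou2f3, 2.37 for Camk1d, 2.27 for Fgl1, 2.05 for Muc20, 2.03 for Foxp2, 1.88 for Car2, 1.86 for Agtr1a and 1.49 for Abca5. Below 0 they were -15.02 for Slpi, -14.23 for Trim5, -12.20 for Stap1, -7.85 for Emb, -7.72 for Scg5, -7.51 for Defb42, -6.94 for Bex2, -6.63 for Plau, -6.38 for Clu, -6.01 for Ces1d, -5.82 for Pfkfb3, -5.43 for Alox5ap, -4.77 for Optc, -4.23 for Tnnt1, -4.14 for Fmod, -3.83 for Golt1a, -3.45 for Kcna2, -3.16 for C7, -3.11 for C1qc, -2.66 for Gsta3, -2.63 for Bgn, -2.52 for Ccnd1, -2.28 for Psmb8 and -2.28 for Krt14. Those of Ms4a5, Slpi, Trim5 and Stap1 are fitted values against a control group at 0 counts and are no measured folds, and F1 controls held 1 count of Scg5.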

How the results depend on the processing

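The interaction, called in 122 genes, was called in 151 with DESeq2 size factors and 127 with F3 thinned to F1 depth, but in 192 with a mean of at least 1 CPM, 1151 with DESeq2's Wald test, 12 with voom and 12 with the F1 controls summed. F1 calls (930) were 1985 with DESeq2, 13 with voom, 36 with the F1 controls summed and 20 in a separate fit. F3 calls (2) were 45 with DESeq2, 35 with voom and 10 in a separate fit, so that F3 calls outnumbered F1 calls with voom. With the replicate number as a block the counts were 49, 249 and 1. The r of deviations of same-numbered libraries was 0.0213 and 0.0309 in F1 and 0.139, -0.00996 and -0.0239 in F3. Other F3 pairs ran from -0.216 to 0.217. With so few libraries per group, and deviations taken from their own means, these values cannot show whether the numbers pair the libraries. The share of genes with the same sign (48.0%) was 46.8% with DESeq2 size factors, with a mean of at least 1 CPM and with the F1 controls summed, 46.7% with DESeq2, 45.9% with thinning, 45.9% in separate fits and 49.4% with the block. Leaving out 1 library at a time gave 27 to 2320 interaction calls, 147 to 3593 F1 calls, 1 to 12 F3 calls, a same-sign share of 45.7% to 49.9%, one of 33.1% to 52.7% among genes with p under 0.05 in both, 14 to 25 lists with medians of the same sign and a Pearson r of -0.05 to 0.01. Interaction calls moved by over 1.5 times without F1 control 1 (54) or 2 (41), F1 chlordecone 2 (2320), F3 control 2 (55) or 3 (70) and F3 chlordecone 1 (27), 2 (27) or 3 (36). Without an F1 control the lone library is assumed to vary like the other groups. Of the 122 genes 16 were called in every fit with 1 library left out. Interactions that did not pass turned above 0 for Upk1a (-0.47) with the block (0.053) and without F1 control 2 (0.11, beside -1.29 without F1 control 1), for Ece1 (-0.33) without F1 control 1 (0.013, beside -0.71 without F1 control 2) and for Sprr1a (-1.47) with the block (0.059). The balance of higher and lower calls also turned: the interaction's 43 and 79 became 8 and 4 with voom, and the 697 and 233 of F1 became 6 and 7 with voom and 9 and 11 in the separate fit. Of genes with p under 0.05 in both generations, 93 of the same and 133 of opposite direction became 58 and 52 without F3 chlordecone 1 and 82 and 81 without F1 control 1. The cause of these shifts was not tested. The F1 counts limit precision at low levels, 3 counts of a library being 0.110 to 0.161 CPM in F1 and 0.0258 to 0.0449 in F3.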

Other observations

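Potassium channel genes had 15 of 18 members above 0 in F1 and 9 of 18 in F3, with medians of 0.89 and -0.07, Kcna2 being the 1 member whose interaction passed. Adipocyte genes, which mark fat around the gland, had 9 of 11 members above 0 in F1 and 9 of 11 below 0 in F3, with medians of 1.53 and -0.66, and none passed. Their summed level was 98.24 to 104 CPM in F1 controls, 192.9 to 420.9 in F1 chlordecone, 111.1 to 389.1 in F3 controls and 150.5 to 233.2 in F3 chlordecone, so that the F3 groups overlapped. Car2, a carbonic anhydrase of acid-secreting epithelium, measured 809 and 746 CPM in F1 controls, 223, 267 and 258 in F1 chlordecone, 325 to 477 in F3 controls and 396 to 581 in F3 chlordecone, with an interaction of 1.88 ± 0.32 (edgeR adjusted p = 0.0212). Greb1, an oestrogen-responsive gene, measured 97.7 and 82.7 CPM in F1 controls, 28.4 to 53.6 in F1 chlordecone, 27.9 to 41.3 in F3 controls and 37.3 to 58.5 in F3 chlordecone, and its interaction of 1.67 did not pass (adjusted p = 0.0602). Foxi1, a factor of proton-secreting cells, measured 0.302 and 0.0453 CPM in F1 controls, 7.34 to 17.4 in F1 chlordecone and at most 0.19 in F3, and its interaction of -4.52 did not pass either (adjusted p = 0.0777).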
